A study of Homo sapiens with 6 samples.

Results

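The p53 targets MDM2, TP53INP1, SESN1, FAS, RRM2B, GADD45A and ZMAT3 were followed in HK-2 cells exposed to oxidised low-density lipoprotein (OX-LDL). The 7 genes were chosen by symbol, as rows of a deposited expression table of 58825 genes. All 7 were among the 19510 genes whose mean over the libraries reached 0.1 FPKM (fragments per kilobase, a level corrected for transcript length and library size) and which were therefore tested. Poly(A) RNA was sequenced from 3 Control libraries of untreated HK-2 cells and from 3 OX-LDL libraries of HK-2 cells kept for 48 h with OX-LDL at 25 μg/ml. HK-2 is a single immortalised line derived from the human proximal tubule, and the methods place a period of low-serum starvation before the lipoprotein was added. No vehicle or native lipoprotein group was among the samples analysed here. The labels do not say whether the libraries of a group came from separate cultures, so p-values measure the spread between these samples, which may be technical.

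p53 is a transcription factor that is held at a low level because one of its own targets, MDM2, marks it for degradation. DNA damage and other stresses interrupt this loop, and p53 then drives genes for cell cycle arrest, DNA repair, apoptosis and metabolic control. In the kidney tubule this response is best known from acute injury. HK-2 cells were immortalised with papillomavirus E6 and E7, and E6 directs p53 to degradation through the ubiquitin ligase UBE3A.

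Total counts were 62561347 to 76797607 per library. A read pair contributed about 4 of the deposited counts, and the lowest count of any of the 7 genes in any library was 899. Of the tubular epithelial markers, EPCAM averaged 51.2 FPKM in the Control and 53.1 FPKM in the OX-LDL libraries. CDH1, which encodes E-cadherin, was close to the minimum of 0.1 FPKM, with means of 0.0968 and 0.106 FPKM. It had only 15 to 73 counts in a library, and its log2 fold change of 0.17 had an SE of 0.63. Of the other tubular markers given here, KRT8 and KRT19 rose by edgeR and PAX8 fell, with log2 fold changes of 0.83, 1.94 and -1.23. Of 8 markers of differentiated proximal tubule, LRP2 and SLC22A6 had no count in any library, CUBN, SLC34A1, AQP1 and ANPEP stayed under the minimum of 0.1 FPKM, and MME had means of 3.73 and 3.21 FPKM. GGT1 is listed under 2 identifiers, at means of 8.41 and 13.6 FPKM in Control and 16.6 and 0.0327 FPKM in OX-LDL. The first had 3.13, 18.2 and 3.88 FPKM in Control 1 to 3, and the second 18.2, 0.0518 and 22.6 FPKM. Control 2 thus had the pattern of the OX-LDL libraries, and the groups overlapped for both identifiers. The second was called lower all the same (edgeR adjusted p = 0.0371). Of 5 fibroblast markers, COL1A1 alone was tested, with means of 0.573 and 0.813 FPKM, and DCN had no count, while none of the 4 endothelial markers reached 0.1 FPKM. Of 4 leukocyte markers, PTPRC had at most 8 counts in a library and CD14 had means of 0.268 and 0.259 FPKM. CD68, a lysosomal protein of macrophages that other cells also make, had means of 5.21 and 10.8 FPKM with every OX-LDL library above Control (log2 fold change 1.08, edgeR adjusted p = 0.0858, DESeq2 adjusted p = 0.00617). The part of these markers in the results was not tested. On the scale of read pairs, the chi-square per gene between libraries of a group was 14.3 to 24.8, where sampling noise alone gives about 1, so no library was a copy of another, and repeat preparations of a culture cannot be told apart from separate cultures.

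Because p53 acts by binding a paired 10-base motif, the RefSeq promoter table (GRCh38.p14, from 250 bases before to 50 bases after each start) was searched for the p53 full consensus site. A match was 20 bases without a spacer, with C at position 4 and G at position 7 of each decamer and at most 3 mismatches in all, a rule set with the known sites in view. The consensus reads the same on both strands. Of the 7 genes, 4 had windows in the table and 3 of these 4 held a match. Across the table, 373 of 27305 genes (1.37%) and 392 of 35116 windows (1.12%) held one. Of 39 other p53 targets with a window, 8 held one (20.5%). These matches describe the letters in the window and were not tested for binding. The 3 matches are printed with capitals marking the site, since they lie in the genes whose values are compared next.
MDM2, chr12:68808883-68808967, plus strand: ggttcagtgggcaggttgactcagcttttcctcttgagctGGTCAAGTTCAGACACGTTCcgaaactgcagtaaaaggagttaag
SESN1, chr6:109008993-109009077, minus strand: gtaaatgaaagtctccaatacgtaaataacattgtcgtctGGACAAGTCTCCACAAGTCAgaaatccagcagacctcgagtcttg
FAS, chr10:88991304-88991333, plus strand: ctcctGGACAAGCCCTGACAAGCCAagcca
The MDM2 site had 2 mismatches and ended 74 bases before a RefSeq start within the gene, in no annotated exon. The SESN1 site had 3 mismatches and ended 29 bases before a start within the gene, also in no annotated exon. The FAS site had 2 mismatches and ended 102 bases before a start, in a stretch that GENCODE release 29 annotates as exonic for a FAS transcript and for ACTA2 on the other strand. ZMAT3 had windows without a match. GADD45A, TP53INP1 and RRM2B had no entry in the table.

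Of the 7 targets, GADD45A alone passed the test between OX-LDL and Control, and it fell 2.70-fold. The others lay between a log2 fold change of -0.41 for ZMAT3 and 0.68 for TP53INP1, and the median of all 7 was 0.26, beside -0.0043 over all genes tested. In edgeR's quasi-likelihood test with Benjamini-Hochberg adjustment over all tested genes, a gene was called at an adjusted p under 0.05. By that rule 1 of the 7 was called lower, beside 7.42% of all tested genes, and 0 were called higher, beside 7.91%. At an unadjusted p under 0.05 in edgeR, 2 of the 7 were higher, TP53INP1 and SESN1, beside 15.3% of all tested genes, and 1 was lower, beside 15.1%. DESeq2 called the same 2 higher at an adjusted p under 0.05, beside 11.7% of all tested genes, and GADD45A lower, beside 11.0%. In 2 of the 7 every OX-LDL library lay above every Control library, which held for 16.8% of all tested genes, and in 1 every OX-LDL library lay below, which held for 20.5%.

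**Figure D1:**
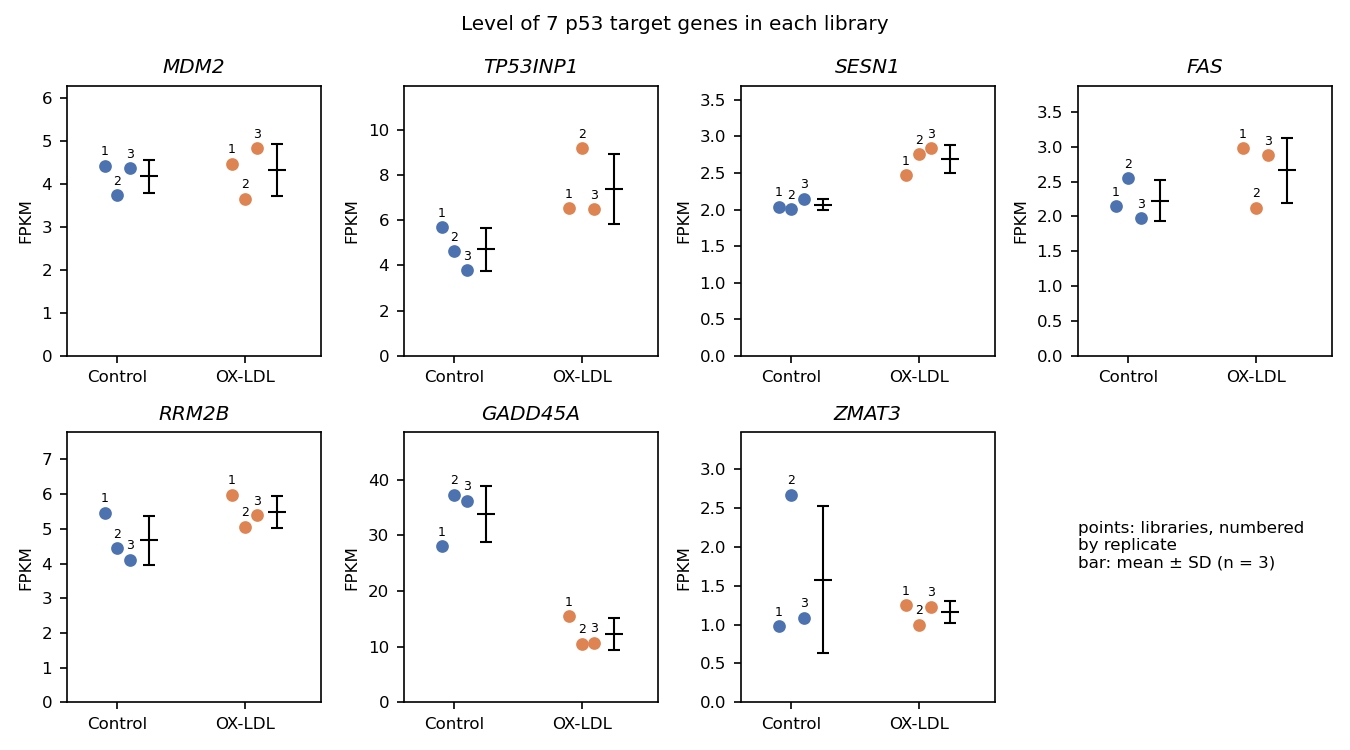
FPKM of each of the 7 p53 targets in each library, with Control and OX-LDL replicates as numbered points and the mean ± SD of 3 libraries as bars, on a linear axis for each gene. GADD45A lies lower in every OX-LDL library, TP53INP1 and SESN1 lie higher in every OX-LDL library, and the groups overlap for the other 4.

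In Control, GADD45A had the highest level per length of the 7, at a mean of 33.9 FPKM. TP53INP1, RRM2B and MDM2 followed at 4.70, 4.67 and 4.18 FPKM, and the ranges of neighbours in that order overlapped. FAS, SESN1 and ZMAT3 had 2.22, 2.07 and 1.58 FPKM, again with overlapping neighbours. In OX-LDL the order was GADD45A, TP53INP1, RRM2B, MDM2, SESN1, FAS and ZMAT3, and only SESN1 and FAS overlapped as neighbours.

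MDM2 (ENSG00000135679, chr12:68808177-68850686, plus strand on GRCh38) encodes the ubiquitin ligase that closes the feedback loop on p53, and its mRNA is widely used as a readout of p53 activity. Its FPKM was 4.43, 3.74 and 4.37 in Control 1 to 3 and 4.47, 3.66 and 4.84 in OX-LDL 1 to 3. The groups overlapped, and the OX-LDL libraries spanned the whole Control range. The log2 fold change was 0.08 (SE 0.13, 95% interval -0.23 to 0.38, n = 3 and 3, edgeR adjusted p = 0.738). Its sign turned to -0.01 without OX-LDL 3 and to -0.005 without Control 2. MDM2 overlaps CPM on the other strand, a gene with up to 10555 counts in a library, and whether the counting used strand is not given in the sources used here.

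The 5 genes with a profile most like that of MDM2 were AGO2, SDAD1, CNOT10, MFSD14A and RAI14. They were ranked by the mean absolute difference of centred log2(FPKM + 0.1) over the 6 libraries, over genes that averaged 5 FPKM or more. That difference was 0.0267 for AGO2 and 0.0560 for RAI14, beside a median of 0.199 over the 6574 genes ranked.

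MDM4, the relative of MDM2 that also restrains p53, had 2.01, 0.848 and 1.38 FPKM in the Control libraries and 2.77, 0.575 and 0.924 FPKM in the OX-LDL libraries. OX-LDL 1 was the highest library and OX-LDL 2 the lowest, and the log2 fold change of 0.03 (SE 0.59, 95% interval -1.37 to 1.44) had an edgeR adjusted p of 0.981. UBE3A, chosen after its values were seen because E6 acts through it, ranged from 3.87 to 4.80 FPKM in Control and from 4.21 to 7.17 FPKM in OX-LDL, with an edgeR adjusted p of 0.225.

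Of 17 genes that encode relatives or regulators of p53, 15 were tested. By edgeR 3 fell and 0 rose, beside 7.42% and 7.91% of all tested genes. At an unadjusted p under 0.05, 5 were lower and 1 was higher, beside 15.1% and 15.3%. DESeq2 called 4 lower and 1 higher, beside 11.0% and 11.7%. The median log2 fold change was -0.07. CREBBP, an acetyltransferase that serves p53 as a coactivator, went from 8.64 ± 0.414 FPKM to 5.30 ± 0.101 FPKM (SD, n = 3), a log2 fold change of -0.67 (SE 0.06, edgeR adjusted p = 0.00224). EP300, its paralog, went from 12.8 ± 0.529 to 10.1 ± 0.262 FPKM (log2 fold change -0.31, edgeR adjusted p = 0.0275). PPM1D, a p53-induced phosphatase that switches the pathway off, went from 5.04 ± 0.323 to 3.47 ± 0.365 FPKM (log2 fold change -0.50, edgeR adjusted p = 0.0316). CREBBP was called under all 15 alternative fits, PPM1D under 9 and EP300 under 10. Leaving out any 1 library except OX-LDL 2 ended the call of PPM1D, at an edgeR adjusted p of 0.0506 or more. Leaving out Control 1, Control 2, OX-LDL 1 or OX-LDL 3 ended that of EP300, at 0.0777 to 0.0868. The count of called genes in this list was then 1 or 2, and it was 4 without OX-LDL 2.

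GADD45A (ENSG00000116717, chr1:67685201-67688334, plus strand) encodes a small stress protein that takes part in G2 arrest and in DNA repair. Its FPKM was 28.1, 37.3 and 36.2 in Control 1 to 3 and 15.5, 10.5 and 10.7 in OX-LDL 1 to 3. The highest OX-LDL library, OX-LDL 1, lay well below the lowest Control library, Control 1. The mean fell from 33.9 ± 5.05 to 12.3 ± 2.83 FPKM (SD, n = 3), a log2 fold change of -1.43 (SE 0.18, 95% interval -1.86 to -1.01, edgeR adjusted p = 0.00525). GADD45A was called under all 15 alternative fits, with log2 fold changes from -1.63 to -1.34 and adjusted p-values of at most 0.0303.

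GADD45B, a member of the same family, moved the other way. Its FPKM was 2.76, 3.21 and 5.23 in Control and 7.08, 8.37 and 7.19 in OX-LDL. The OX-LDL libraries lay close together and above all Control libraries, of which Control 3 was the highest. The log2 fold change was 1.04 (SE 0.25, edgeR adjusted p = 0.0339), and it stayed called in 9 of the 15 alternatives. The call ended without any 1 library except Control 3, at an edgeR adjusted p of 0.0765 to 0.116. The log2 ratio of GADD45A to GADD45B within a library was 3.23 ± 0.388 in Control and 0.68 ± 0.411 in OX-LDL (SD, n = 3). GADD45G, the remaining member, was at 0.352, 0.222 and 0.224 FPKM in Control. In OX-LDL it had no count in OX-LDL 1 and 0.257 and 0.375 FPKM in OX-LDL 2 and 3, so the groups overlapped.

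The best known arrest gene of p53, CDKN1A, which encodes the cyclin-dependent kinase inhibitor p21, fell together with GADD45A. CDKN1A was at 17.4, 23.3 and 20.6 FPKM in the Control libraries and 6.77, 8.14 and 7.31 FPKM in the OX-LDL libraries. Every OX-LDL library was below every Control library, and the log2 fold change was -1.43 (SE 0.13, edgeR adjusted p = 0.00185). SFN, encoding 14-3-3 sigma, which holds cells in G2, rose from 16.1 ± 1.53 to 28.9 ± 0.190 FPKM (SD, n = 3, log2 fold change 0.88, edgeR adjusted p = 0.00365). Of 9 other arrest targets, all tested, these were the 1 that fell and the 1 that rose, beside 7.42% and 7.91% of all tested genes. The median log2 fold change of the 9 was 0.15. CDKN1A and SFN were each called under all 15 alternative fits, and without OX-LDL 2 the count of called arrest targets was 4.

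FAS (ENSG00000026103, chr10:88990531-89017059, plus strand) encodes a death receptor at the cell surface. Its FPKM was 2.15, 2.55 and 1.97 in Control 1 to 3 and 2.98, 2.12 and 2.88 in OX-LDL 1 to 3. OX-LDL 2 lay inside the Control range while OX-LDL 1 and OX-LDL 3 lay above it. On the log2 scale the difference was 0.29 (SE 0.17, 95% interval -0.11 to 0.69, edgeR adjusted p = 0.300). ACTA2, on the other strand, had at most 70 counts in a library. FADD, the adaptor that couples FAS to caspases, fell from 17.4 ± 2.77 to 12.4 ± 0.375 FPKM (log2 fold change -0.45, edgeR adjusted p = 0.0495), and it lost that call in 10 of the 15 alternatives. These included leaving out any 1 library except Control 1, at an edgeR adjusted p of 0.0820 to 0.150. FASLG, the ligand of FAS, reached 0.0712 FPKM at most and was not tested.

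TNFRSF10B, the TRAIL receptor that is another p53-induced death receptor, had 25.7, 29.1 and 34.1 FPKM in the Control libraries and 17.1, 17.0 and 16.4 FPKM in the OX-LDL libraries. All OX-LDL libraries lay below the Control libraries, and the log2 fold change was -0.78 (SE 0.11, edgeR adjusted p = 0.00686). The log2 ratio of FAS to TNFRSF10B was -3.73 ± 0.328 in Control and -2.68 ± 0.281 in OX-LDL (SD, n = 3).

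TP53INP1 (ENSG00000164938, chr8:94925972-94949378, minus strand) encodes a nuclear protein that promotes p53-dependent apoptosis and takes part in autophagy. Its FPKM was 5.69, 4.63 and 3.79 in Control 1 to 3 and 6.52, 9.18 and 6.48 in OX-LDL 1 to 3. Each OX-LDL library was above each Control library, with OX-LDL 3 and Control 1 the closest. Its mean was 4.70 ± 0.952 FPKM without and 7.39 ± 1.55 FPKM with OX-LDL (SD, n = 3), with a log2 fold change of 0.68 (SE 0.20, 95% interval 0.21 to 1.16). The edgeR adjusted p was 0.0652 and the DESeq2 adjusted p was 0.00764. NDUFAF6, which overlaps it on the other strand, had up to 1430 counts in a library. TP53INP2, its relative, had 4.86, 5.27 and 3.78 FPKM in the Control libraries and 5.14, 4.65 and 4.95 FPKM in the OX-LDL libraries, with overlapping groups and a log2 fold change of 0.11 (SE 0.14, edgeR adjusted p = 0.638).

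Of 14 other apoptosis targets, 11 were tested, 3 rose and 2 fell, beside 7.91% and 7.42% of all tested genes. The median log2 fold change of the 11 was -0.34. APAF1, the core of the apoptosome, rose from 5.09 ± 0.218 to 8.73 ± 0.590 FPKM (SD, n = 3, log2 fold change 0.81, edgeR adjusted p = 0.00291). PERP, a membrane protein of desmosomes and of p53-dependent apoptosis, rose from 14.2 ± 1.20 to 20.2 ± 1.42 FPKM (log2 fold change 0.54, edgeR adjusted p = 0.0142). TP53I3, an oxidoreductase, also rose (log2 fold change 0.63, edgeR adjusted p = 0.0412) and was chosen after its values were seen. BAX, which permeabilises mitochondria, fell with TNFRSF10B, from 11.3 ± 1.43 to 7.87 ± 0.646 FPKM (log2 fold change -0.48, edgeR adjusted p = 0.0373). PMAIP1, which encodes NOXA and was also chosen after its values were seen, had 39.3, 18.9 and 36.5 FPKM in the Control libraries and 6.48, 5.24 and 16.2 FPKM in the OX-LDL libraries. Its groups did not overlap, but they were widely spread, and the log2 fold change of -1.73 (SE 0.48) had an edgeR adjusted p of 0.0560. PMAIP1 was called in 7 of the 15 alternatives, among them DESeq2 (adjusted p = 0.0233). Without OX-LDL 3 its log2 fold change was -2.40, with an edgeR adjusted p of 0.0258. No other fit that left out 1 library called it. The calls of TP53I3 and BAX were lost in 7 and 6 of the 15 alternatives. TP53I3 lost it without any 1 library except Control 2, at an edgeR adjusted p of 0.0755 to 0.118, and BAX without any 1 except OX-LDL 2, at 0.0519 to 0.126. PERP lost it without Control 2, OX-LDL 1 or OX-LDL 3, at 0.0527 to 0.0585. The count of called apoptosis targets was 4 without OX-LDL 2, 2 without OX-LDL 1 and 3 without any other library.

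SESN1 (ENSG00000080546, chr6:108986437-109094819, minus strand) encodes a sestrin, a leucine-binding protein that restrains the growth kinase complex mTORC1. Its FPKM was 2.04, 2.01 and 2.15 in Control 1 to 3 and 2.47, 2.76 and 2.84 in OX-LDL 1 to 3. The Control libraries lay within a narrow range and every OX-LDL library was above it. Its mean was 2.07 ± 0.0760 FPKM without and 2.69 ± 0.192 FPKM with OX-LDL (SD, n = 3), with a log2 fold change of 0.41 (SE 0.11, 95% interval 0.14 to 0.68). The edgeR adjusted p was 0.0537 and the DESeq2 adjusted p was 0.00758.

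SESN2, a sestrin induced by other stresses as well as by p53, fell. It had 20.2, 21.0 and 23.6 FPKM in the Control libraries and 6.67, 7.74 and 5.58 FPKM in the OX-LDL libraries. The groups were far apart, and the log2 fold change was -1.67 (SE 0.13, edgeR adjusted p = 0.00157). The log2 ratio of SESN1 to SESN2 was -3.39 ± 0.0746 in Control and -1.30 ± 0.282 in OX-LDL (SD, n = 3). SESN3, the remaining sestrin, was under the minimum of 0.1 FPKM, with counts of 30, 39 and 30 in the Control libraries and of 96, 138 and 137 in the OX-LDL libraries. Without that minimum its log2 fold change was 1.94, with an edgeR adjusted p of 0.0109.

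Of 16 other metabolic and feedback targets, 15 were tested, with a median log2 fold change of -0.11. By edgeR 2 fell and 0 rose, beside 7.42% and 7.91% of all tested genes. At an unadjusted p under 0.05, 4 were lower and 1 was higher, beside 15.1% and 15.3%. DESeq2 called 2 lower and 1 higher, beside 11.0% and 11.7%. The other gene that fell beside SESN2 was GDF15, a secreted stress hormone. GDF15 had 48.7, 55.1 and 48.9 FPKM in the Control libraries and 5.81, 6.97 and 6.30 FPKM in the OX-LDL libraries, a 7.81-fold lower level (log2 fold change -2.97, SE 0.10, edgeR adjusted p = 0.000195). Both genes were called under all 15 alternative fits, and without OX-LDL 2 the count of called genes in this list was 4.

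RRM2B (ENSG00000048392, chr8:102204502-102239118, minus strand) encodes the p53-inducible small subunit of ribonucleotide reductase, which supplies deoxynucleotides outside S phase. Its FPKM was 5.47, 4.44 and 4.11 in Control 1 to 3 and 5.98, 5.07 and 5.40 in OX-LDL 1 to 3. Control 1 lay above OX-LDL 2 and OX-LDL 3, so the groups overlapped. OX-LDL over Control gave a log2 fold change of 0.26 (SE 0.13, 95% interval -0.06 to 0.58, edgeR adjusted p = 0.248). No other gene of the table overlaps RRM2B.

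The other subunits of ribonucleotide reductase rose. RRM2, the small subunit of dividing cells, had 7.99, 8.02 and 9.60 FPKM in the Control libraries and 14.0, 20.0 and 28.2 FPKM in the OX-LDL libraries. Its OX-LDL libraries were widely spread but all above Control, and the log2 fold change was 1.31 (SE 0.25, edgeR adjusted p = 0.0168). Without Control 1 or Control 2 the edgeR adjusted p was 0.0572 or 0.0688. RRM1, the large subunit, rose from 31.5 ± 3.78 to 56.5 ± 3.51 FPKM (SD, n = 3, log2 fold change 0.87, edgeR adjusted p = 0.00513). The log2 ratio of RRM2B to RRM2 was -0.87 ± 0.338 in Control and -1.86 ± 0.586 in OX-LDL, with Control 3 at -1.22 next to OX-LDL 1 at -1.23. Of 12 relatives and partners of the 7 targets, 10 were tested, with a median log2 fold change of 0.10. By edgeR 3 rose and 1 fell, beside 7.91% and 7.42% of all tested genes. The count of called relatives was 3 without Control 3, 1 without Control 2 and 2 without any other library.

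Of 6 other DNA repair targets, all tested, edgeR called 0. At an unadjusted p under 0.05, 3 were higher, beside 15.3% of all tested genes. DESeq2 called 3 higher at an adjusted p under 0.05, beside 11.7%. These were XPC, POLH and ASCC3 by both measures, named after their values were seen. XPC, which recognises DNA damage, had mean levels of 8.83 ± 0.576 FPKM without and 10.8 ± 0.924 FPKM with OX-LDL. POLH, a polymerase that copies past lesions, had mean levels of 10.1 ± 0.366 FPKM without and 13.4 ± 1.98 FPKM with OX-LDL (SD, n = 3). The median log2 fold change of the 6 genes was 0.17, and without OX-LDL 2 edgeR called 2 of them.

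ZMAT3 (ENSG00000172667, chr3:178960121-179071831, minus strand) encodes an RNA-binding zinc finger protein that acts in splicing downstream of p53. Its FPKM was 0.978, 2.67 and 1.09 in Control 1 to 3 and 1.25, 0.995 and 1.23 in OX-LDL 1 to 3. Control 2 stood at 2.58 times the mean of the other Control libraries, and the remaining 5 libraries lay close together. The log2 fold change was -0.41 (SE 0.37, 95% interval -1.30 to 0.48, edgeR adjusted p = 0.524). Without Control 2 it was 0.19, with an adjusted p of 0.529. ZMAT2, a relative, had mean levels of 40.2 ± 1.72 FPKM without and 42.1 ± 1.10 FPKM with OX-LDL (SD, n = 3, log2 fold change 0.10, edgeR adjusted p = 0.373). ZMAT5, another relative, had mean levels of 1.82 ± 0.189 and 1.43 ± 0.160 FPKM (log2 fold change -0.31, edgeR adjusted p = 0.244). Every OX-LDL library of ZMAT5 lay below every Control library, which held for 20.5% of all tested genes.

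**Figure D2:**
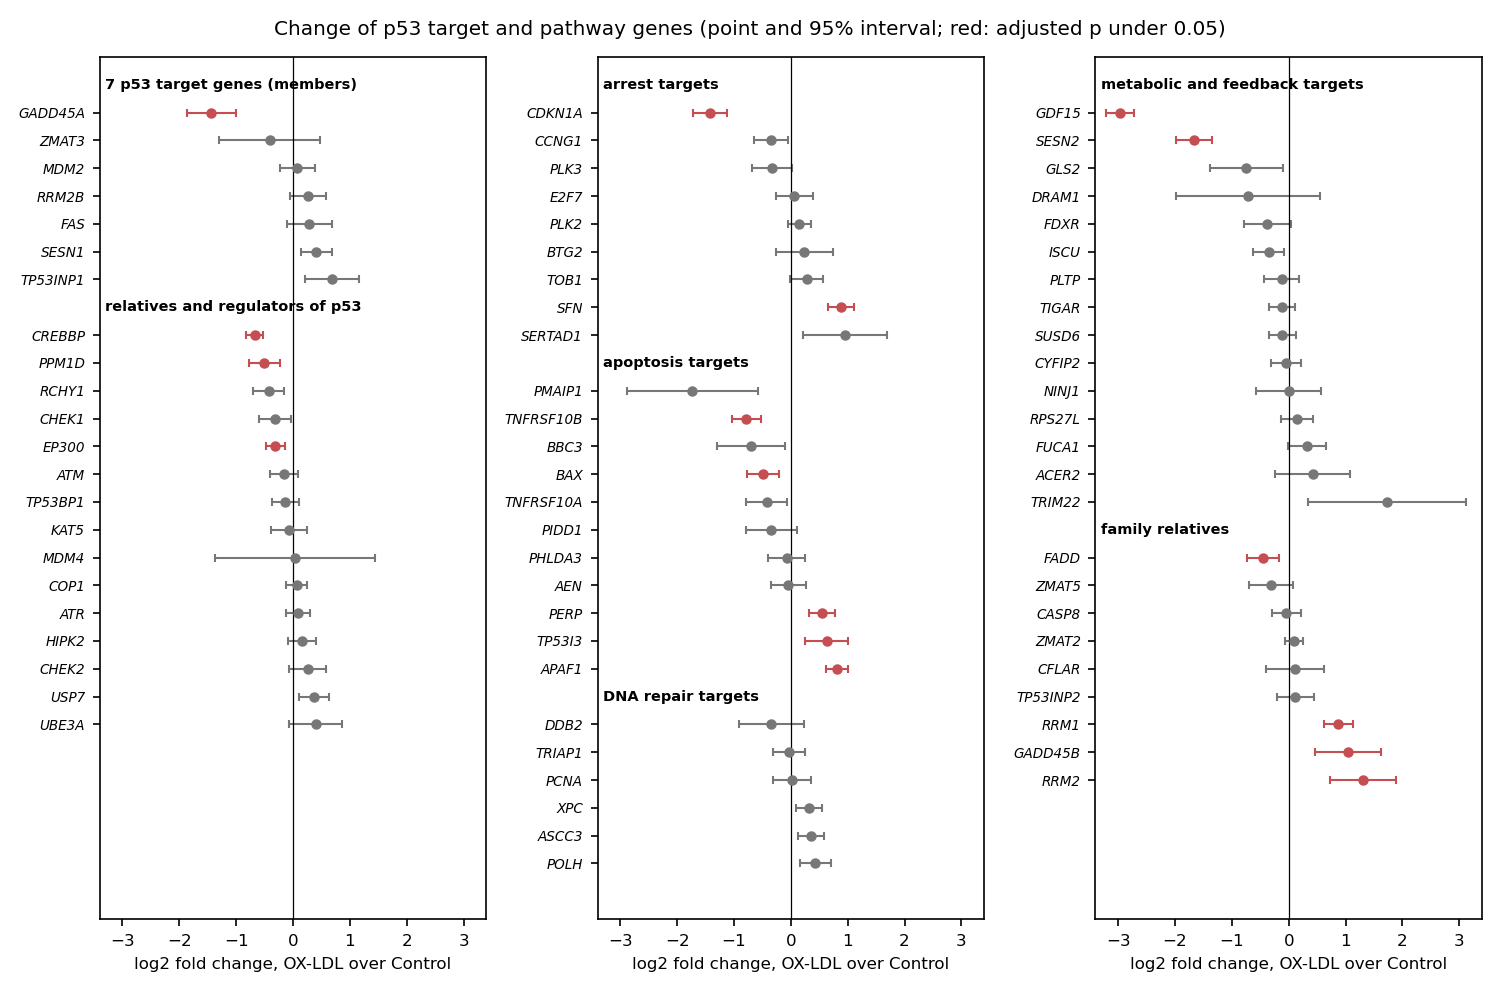
Log2 fold change, OX-LDL over Control, with its 95% interval for each tested p53 target, regulator and relative, grouped by list, with genes of an adjusted p under 0.05 in red. GADD45A at -1.43 is the only red point among the 7 targets, and among the other targets CDKN1A is at -1.43, SESN2 at -1.67 and GDF15 at -2.97. GADD45G, whose interval runs past the axis, is not drawn.

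Over the 45 other p53 targets, 41 were tested, 4 rose and 5 fell, with a median log2 fold change of -0.05. With the 7 genes above added, 48 targets were tested, of which 4 rose, 6 fell and 38 were not called. Over all tested genes edgeR called 7.91% higher and 7.42% lower. DESeq2 called 11 of the 48 higher and 7 lower, beside 11.7% and 11.0% of all tested genes. Which direction held more calls thus turned with the tool. In 10 of these 48 every OX-LDL library lay above Control and in 16 every OX-LDL library lay below, beside 16.8% and 20.5% of all tested genes. The lists were chosen with results of these data known, so their counts are descriptions. In bulk RNA, a change in the number of cells that express a gene and a change in RNA per cell cannot be told apart.

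Within-library ratios of a target to a relative do not depend on library size, and 6 such ratios were compared by an exact permutation test, two-sided. The ratios were chosen after the data were seen, so their values are descriptions. Of the 6 ratios, 5 did not overlap between the groups. Each of the 5 had an exact permutation p of 0.1, the smallest that 3 against 3 libraries allow. After Benjamini-Hochberg adjustment over the 6 it was 0.12. The share of such ratios among other gene pairs was not computed. The largest difference was that of GADD45A to GADD45B, at -2.55 on the log2 scale. The differences were 2.09 for SESN1 to SESN2, 1.06 for FAS to TNFRSF10B, -0.99 for RRM2B to RRM2 and 0.56 for TP53INP1 to TP53INP2. On their own, FAS and RRM2B overlapped between the groups, while TNFRSF10B and RRM2 did not. The ratio of MDM2 to MDM4 overlapped, with a log2 mean of 1.65 ± 0.503 in Control and 1.92 ± 1.07 in OX-LDL (SD, n = 3, exact permutation p = 0.7). Since the smallest possible p was 0.1, no ratio could pass a threshold of 0.05, and the test cannot decide about any of them. GADD45B, SESN2, RRM2 and TNFRSF10B were each called on their own, so the separation of their ratios partly repeats those calls.

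**Figure D3:**
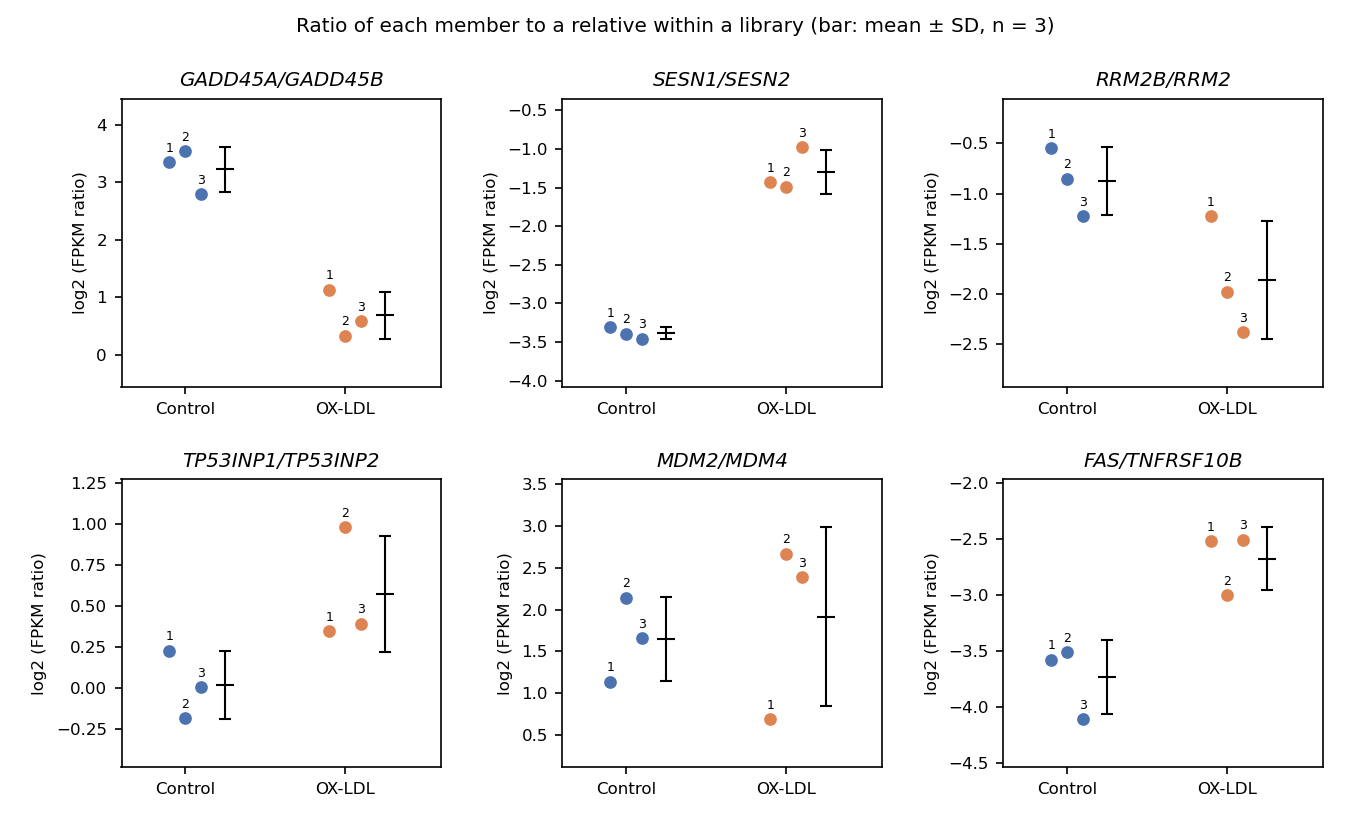
Log2 ratio of FPKM within each library for 6 pairs of a p53 target and a relative, with Control and OX-LDL replicates as numbered points and mean ± SD of 3 libraries as bars. The mean GADD45A to GADD45B ratio is 3.23 in Control and 0.68 in OX-LDL, the mean SESN1 to SESN2 ratio is -3.39 and -1.30, and the MDM2 to MDM4 ratio overlaps between the groups.

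The calls of TP53INP1 and SESN1 depended on the fit, and that of GADD45A did not. SESN1 passed with DESeq2, with upper-quartile factors and with a minimum of 1 FPKM, and TP53INP1 passed with DESeq2 and with a minimum of 1 FPKM. Of all genes tested, 15.7% were called with upper-quartile factors and 25.7% with a minimum of 1 FPKM. Over the alternatives the log2 fold change of TP53INP1 ran from 0.50 to 0.85 and that of SESN1 from 0.27 to 0.48, all of them positive. FAS ran from 0.18 to 0.43 and RRM2B from 0.18 to 0.40, and neither passed in any of the 15.

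**Figure D4:**
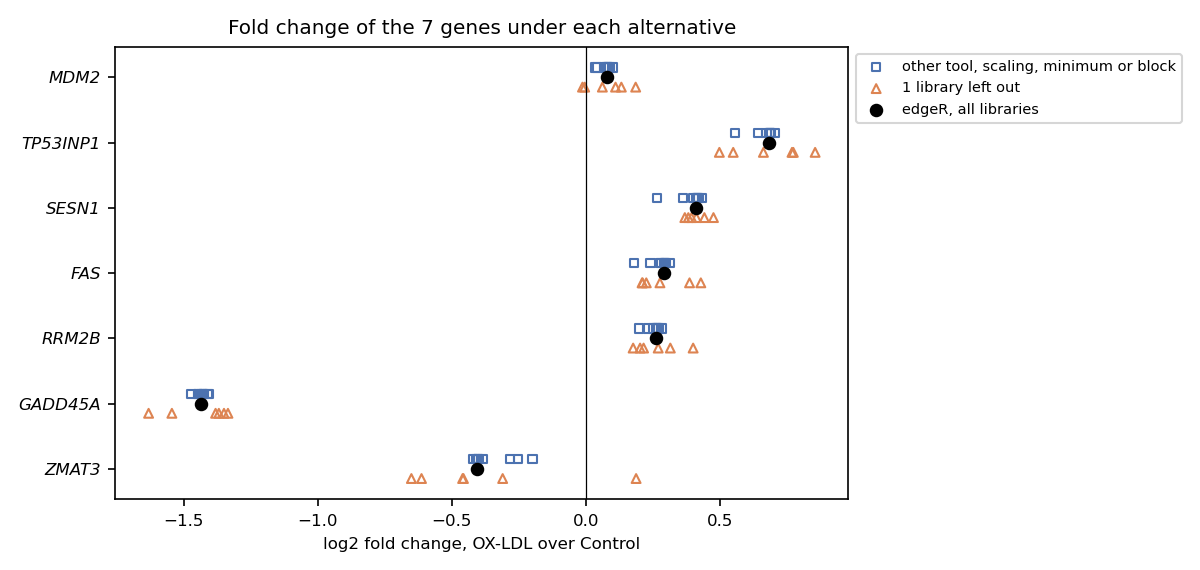
Log2 fold change, OX-LDL over Control, of each of the 7 p53 targets in the edgeR fit of all libraries (filled circles), in fits with another tool, scaling, minimum or a block (open squares) and in 6 fits that each leave out 1 library (open triangles). GADD45A stays between -1.63 and -1.34, TP53INP1, SESN1, FAS and RRM2B stay above 0, and MDM2 and ZMAT3 cross 0 only where 1 library is left out.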

How the data were processed

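The authors deposited 1 table with estimated counts, which are whole numbers and were not scaled for library size, and FPKM values, which they scaled per kilobase and for library size, with a gene without a count listed at 0.0001. Per the labels, poly(A) RNA was read as pairs from strand-marking libraries. The submitters' processing notes name cutadapt 1.9, HISAT2 2.0.4, StringTie 1.3.4d and GRCh38, and neither the role of each tool nor the strand setting is given in the sources used here. The deposited counts were tested in edgeR 4.0.16 (R 4.3.3) with TMM factors, glmQLFit and glmQLFTest, with group as the only term, over genes that averaged 0.1 FPKM or more. DESeq2 1.42.0, limma 3.58.1 on log2(FPKM + 0.1) or log2(FPKM + 1), other normalization factors, counts divided by 4, a minimum of 1 FPKM, no minimum, a replicate block and leaving out each library were tried. The fits were tested on simulated data. Ratios of relatives were added after the data were seen.

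The genes and lists were chosen with earlier results of these data known. Besides the 7 targets, the genes named were in each list the called genes with the smallest p, at most 4, relatives of a target, and the 5 most like MDM2. Markers and genes said to be chosen after their values were seen stand outside this rule. A gene of the regulator list is not reported here, and its list was counted without it. With 224.75 read pairs or more behind each value of the 7 targets, counting error was at most 6.67%. The intervals printed with the fold changes come from the edgeR fit and also cover the spread between libraries.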

Additional observations from a re-analysis of the deposited data

How the results depend on the processing

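Of 434 values of 29 named genes under the alternatives, 367 kept their direction and their side of the threshold, 45 lost a call, 12 gained one and 10 turned sign. Of the 7 targets, edgeR called 1, DESeq2 called 3, upper-quartile factors gave 2 and a minimum of 1 FPKM gave 3, beside 2991, 4430 and 3058 of 19510 genes and 3152 of 12259. Of the regulators, 3 were called, with 5 by DESeq2. Of the apoptosis targets, 5 were called, and 3 with no minimum. No DNA repair target was called by edgeR, with 3 by DESeq2, 2 with counts divided by 4, 1 with DESeq2 size factors, 2 with upper-quartile factors and 3 at a minimum of 1 FPKM. Leaving out 1 library at a time gave 1161 to 2943 called genes in all, beside 2991 with every library, and the lowest count was without Control 2. It gave 1 to 4 regulators, 2 to 4 arrest targets, 2 to 4 apoptosis targets, 0 to 2 DNA repair targets, 2 to 4 metabolic targets and 1 to 3 relatives. Over the same refits, log2 fold changes ran from -0.013 (without OX-LDL 3, and -0.005 without Control 2) to 0.19 for MDM2, from -0.65 to 0.19 (without Control 2) for ZMAT3, from -0.87 (without OX-LDL 1) to 0.41 for MDM4, from -0.96 to 0.28 (without OX-LDL 1) for GADD45G and from -0.013 (without Control 3) to 0.20 for TP53INP2. MDM4 was also at -0.24 without Control 2, and at -0.19 and -0.072 in limma at pseudocounts of 0.1 and 1. The MDM2 to MDM4 ratio ran from -0.11 (without OX-LDL 2) to 0.88, in refits chosen after seeing the data. The cause of these changes was not tested. Same-numbered Control and OX-LDL libraries did not deviate together (correlations of -0.041, -0.0031 and 0.036). The labels do not say whether the numbers pair samples, and these correlations cannot decide it. With a replicate block, 1636 genes, 1 regulator and 2 relatives were called and MDM4 was at -0.19. About 4 counts per read pair mean that depth is overstated by the totals.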

Other observations

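GADD45A, SESN2 and GDF15 are also known to respond to the integrated stress response, so 6 genes of that response were read from the same fit after the values above had been seen. ATF4, its central transcription factor, fell from 147 ± 3.34 to 95.8 ± 7.15 FPKM (SD, n = 3, log2 fold change -0.59, edgeR adjusted p = 0.00526). DDIT3, which encodes CHOP, fell from 85.2 ± 34.4 to 13.3 ± 3.79 FPKM (log2 fold change -2.64, edgeR adjusted p = 0.00515). ASNS, an amino acid synthesis enzyme, fell from 40.6 ± 0.982 to 4.55 ± 1.13 FPKM (log2 fold change -3.13, edgeR adjusted p = 0.000504). ATF3, TRIB3 and CHAC1 fell with log2 fold changes of -2.09, -2.39 and -2.57. In all 6 genes every OX-LDL library lay below every Control library, which held for 20.5% of all tested genes. What the values of these 6 genes share with those of the p53 targets was not tested.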
